A study of Mus musculus with 34 samples.

Results

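Akr1cl, Arsi, Ly6a, Lrrc15 and Pparg are 5 of the 48709 genes listed for control and Mta123KO mouse ES cells, and they were selected on the size of their increase in counts from control to Mta123KO libraries. Their levels in the control and Mta123KO libraries are therefore a description, and nothing is read from how many members pass a threshold there. The rule of choice used no values of the 18 single-mutant libraries, so the members were tested there. Earlier results of these data were known when the members were chosen. The questions were whether loss of a single MTA gene showed any part of the increase, and whether the increase depended on culture.

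MTA proteins are scaffold subunits of NuRD, a corepressor that joins the nucleosome remodeller Chd4 to the histone deacetylases Hdac1 and Hdac2, with Mbd2 or Mbd3 bridging both activities. Mta1, Mta2 and Mta3 are related subunits, and in ES cells the study found each of them bound to the others within NuRD. The 5 genes have unrelated products. Akr1cl belongs to the aldo-keto reductases, which reduce steroids and other carbonyl compounds. Arsi is an arylsulfatase, an enzyme that removes sulphate groups. Ly6a, also known as Sca-1, is a lipid-anchored surface protein used to sort mouse haematopoietic stem cells. Lrrc15 is a membrane protein with leucine-rich repeats found on mesenchymal cells. Pparg is the nuclear receptor that drives fat cell formation, binds DNA as a partner of Rxr proteins and is also required in the trophoblast of the placenta.

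The files hold counts for 34 libraries of 129/Ola mouse ES cells. Control cells (Mta1 heterozygous, Mta2 wild type, Mta3 flox/flox) and Mta123KO cells (Mta1 and Mta3 deleted by Cre, Mta2 lost through a puromycin cassette on 1 allele and a deletion on the other) were sequenced as 4 libraries each in 2iL, which holds LIF and blocks both Mek and Gsk3, and 4 each after 48 h of culture in N2B27 alone. The 4 libraries of a group are 2 libraries from each of 2 lines, reading the first part of the replicate number as the line. Each value thus rests on 2 lines, and p-values over libraries of 1 line are too small for a statement about lines. The single mutants were grown in 2iL, 3 libraries each: Mta1_del and Mta3_del, made by Cre from the Mta1_flox and Mta3_flox parents, and Mta2_KO, given in the study as 1 line, compared with Mta2_WT. Nothing in the labels says that these libraries came from separate cultures, so the spread between them may be technical. As whole libraries, Mta2_WT replicates 1 and 2 were close (chi-square per degree of freedom 8.63), with 187 and 215 to replicate 3. Mta2_KO replicates 1 and 3 were close (4.41), with 77.1 and 74.7 to replicate 2. If close libraries are repeats of 1 culture, the p-values of the Mta2 comparison are too small.

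Total counts ran from 37855790 to 57602285 per library for control and Mta123KO and from 13105820 to 40613585 for the single mutants. Levels are given as CPM, the counts of a gene per 1000000 counts of the library total after TMM scaling. Mta2 was counted at 4.71 to 10.4 CPM in Mta123KO and 9.23 to 11.9 CPM in Mta2_KO, against at least 111 CPM in every other group. Mta3 fell to 9.51 to 23.8 CPM in Mta123KO and 9.65 to 12.8 CPM in Mta3_del, against 36.4 to 74.9 and 60.6 to 70.4 CPM in their controls. Mta1 was counted at 38.5 to 48.0 CPM in Mta1_del and 69.0 to 105 CPM in Mta1_flox, a difference that did not pass the correction (adjusted p = 1.0, edgeR). All groups expressed the ES cell factor Pou5f1, at 233 to 880.4 CPM per library. The culture labels are in doubt. The names of the deposited files give the opposite culture to the sample titles for all 16 control and Mta123KO libraries. In control libraries labelled 48 h, 10 of 10 naive pluripotency genes were higher. There 9 of 10 post-implantation epiblast and early neural genes were lower past the thresholds used here. The CPM values of these last 10 genes summed to 967 to 1500 in controls labelled 2iL and 110 to 118 labelled 48 h. They summed to 272 to 373 and 122 to 149 in Mta123KO under the same labels, and to 121 to 282 in the single-mutant and parent libraries. The 10 naive genes summed to 282 to 359 CPM in controls labelled 2iL and 3976 to 4398 CPM labelled 48 h. In the single-mutant and parent libraries, grown in 2iL, they summed to 3581 to 6213 CPM. By both sums the controls labelled 48 h were nearer to these libraries than the controls labelled 2iL were. Cultures are therefore named as labelled, and a label below does not establish the culture. If the labels were exchanged, the values of each comparison would stay the same, the culture names would swap and the culture differences would change sign.

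The bases before the start sites that RefSeq gives on GRCm38.p6 for Akr1cl, Lrrc15 and Pparg are shown to let the genes be compared at the sequence level, with CG dinucleotides, the target of DNA methylation, in capitals. Each run holds the 250 bases before the start site, read 5′ to 3′ on the strand of the gene. Akr1cl lies on the minus strand (chr1:65032760-65033009).

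Akr1cl: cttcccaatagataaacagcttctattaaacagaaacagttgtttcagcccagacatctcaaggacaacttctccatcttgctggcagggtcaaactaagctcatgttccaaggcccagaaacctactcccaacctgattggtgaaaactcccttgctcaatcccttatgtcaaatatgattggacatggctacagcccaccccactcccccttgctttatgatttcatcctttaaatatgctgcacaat

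Lrrc15 also lies on the minus strand (chr16:30283255-30283504), and Pparg lies on the plus strand with 3 listed start sites, of which the last is shown (chr6:115421816-115422065).

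Lrrc15: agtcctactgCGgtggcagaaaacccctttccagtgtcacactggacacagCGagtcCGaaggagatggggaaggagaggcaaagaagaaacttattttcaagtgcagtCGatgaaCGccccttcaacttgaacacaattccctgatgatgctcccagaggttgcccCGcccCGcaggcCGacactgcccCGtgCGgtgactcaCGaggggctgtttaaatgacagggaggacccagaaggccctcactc
Pparg, last start site: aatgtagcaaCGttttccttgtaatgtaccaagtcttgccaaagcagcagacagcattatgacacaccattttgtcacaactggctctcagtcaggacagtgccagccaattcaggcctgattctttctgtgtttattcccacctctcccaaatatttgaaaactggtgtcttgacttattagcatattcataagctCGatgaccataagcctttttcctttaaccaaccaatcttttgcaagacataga

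The windows differed in CG content. The Akr1cl window held 0 CG dinucleotides, a count reached by 7.80% of 32536 RefSeq windows of this length, whose median was 6. The Lrrc15 window held 11, the window of the first Pparg start site, not printed here, 38 and that of the last 2. The CCAAT box (letters CCAAT, either strand), present in 33.8% of all windows, occurred 3 times before Akr1cl and 2 times before the last Pparg start site. The GC box (GGGCGG, either strand; 32.97% of windows) occurred once each before Lrrc15 and the first Pparg start site. The AP-1 motif TGANTCA, which reads the same on both strands and was in 6.73% of windows, occurred before Lrrc15. TATAAA (12.3% of windows) and the PPAR response element, a repeat of AGGTCA with 1 base between the copies (0.0338% of windows), were in none of these 4 windows, on either strand. The second Pparg start site, whose window is not printed, had 12 CG dinucleotides, 1 CCAAT box, 2 GC boxes and 1 TATAAA, the last on the opposite strand.

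Akr1cl (ENSMUSG00000025955, chromosome 1, 65012689 to 65032759, minus strand, GRCm38) had the highest level of the 5 genes in Mta123KO. The control libraries labelled 2iL had 0.380, 0.810, 0.269 and 0.310 CPM, in the order line 1, line 1, line 2, line 2, and the Mta123KO libraries with this label had 159.9, 154, 247 and 287 CPM. The libraries labelled 48 h had 0.617, 1.05, 0.622 and 0.956 CPM in control and 166, 145, 316 and 307 CPM in Mta123KO. Every Mta123KO library was thus above every control library, under both labels. The log2 difference was 8.91 (standard error 0.38) labelled 2iL and 8.19 (standard error 0.37) labelled 48 h.

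Arsi (ENSMUSG00000036412, chromosome 18, 60911780 to 60918561, plus strand) went from near 0 to moderate levels. Control libraries held 1, 0, 4 and 3 counts labelled 2iL and 1, 1, 0 and 3 counts labelled 48 h. The Mta123KO libraries held 1030, 834, 159 and 145 counts (21.9, 18.9, 3.86 and 3.12 CPM) labelled 2iL and 333, 369, 59 and 93 counts (7.69, 8.11, 1.32 and 1.70 CPM) labelled 48 h. The groups did not overlap under either label, and the line 1 libraries of Mta123KO stood well above those of line 2. With so few control counts, the ratio of summed counts per summed total was 296 (95% exact interval 149.8 to 686) labelled 2iL and 162 (69.0 to 499) labelled 48 h, intervals that cover counting error only.

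Ly6a (ENSMUSG00000075602, chromosome 15, 74994877 to 74998031, minus strand) was higher under the 48 h label in both genotypes. Controls labelled 2iL held 2, 0, 2 and 0 counts, and controls labelled 48 h held 41, 10, 16 and 14 counts (0.723, 0.263, 0.383 and 0.326 CPM). Mta123KO libraries had 6.86, 6.14, 2.33 and 2.67 CPM labelled 2iL and 25.7, 26.7, 17.6 and 18.9 CPM labelled 48 h. The 4 groups formed 4 separate ranges in the order Control labelled 2iL, Control labelled 48 h, Mta123KO labelled 2iL and Mta123KO labelled 48 h. The ratio of summed counts was 222 (exact interval 86.4 to 817) labelled 2iL, where the controls summed to 4 counts, and 48.5 (38.9 to 61.2) labelled 48 h.

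Lrrc15 (ENSMUSG00000052316, chromosome 16, 30269302 to 30283256, minus strand) was increased in Mta123KO under 1 label only. Labelled 2iL, controls had 0.0599, 0.249, 0.352 and 0.155 CPM and Mta123KO libraries 53.4, 61.6, 14.6 and 24.4 CPM. Labelled 48 h, controls had 18.2, 13.9, 17.1 and 16.1 CPM and Mta123KO libraries 21.1, 24.2, 8.55 and 9.25 CPM. In the second comparison line 1 of Mta123KO was above all controls and line 2 below all of them. The log2 difference was 7.56 (standard error 0.64) labelled 2iL and -0.04 (standard error 0.32) labelled 48 h.

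Pparg (ENSMUSG00000000440, chromosome 6, 115360951 to 115490399, plus strand) was close to absent from control cells. Controls held 0, 2, 0 and 2 counts labelled 2iL and 0, 0, 1 and 0 counts labelled 48 h. Mta123KO libraries held 74, 132, 20 and 26 counts (1.57, 2.99, 0.485 and 0.560 CPM) labelled 2iL and 370, 522, 54 and 62 counts (8.55, 11.5, 1.21 and 1.13 CPM) labelled 48 h. All 8 Mta123KO libraries were above all 8 controls. The ratio of summed counts was 68.7 (exact interval 26.5 to 254) labelled 2iL and 953 (171 to 37695) labelled 48 h, the second resting on 1 control count.

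**Figure D1:**
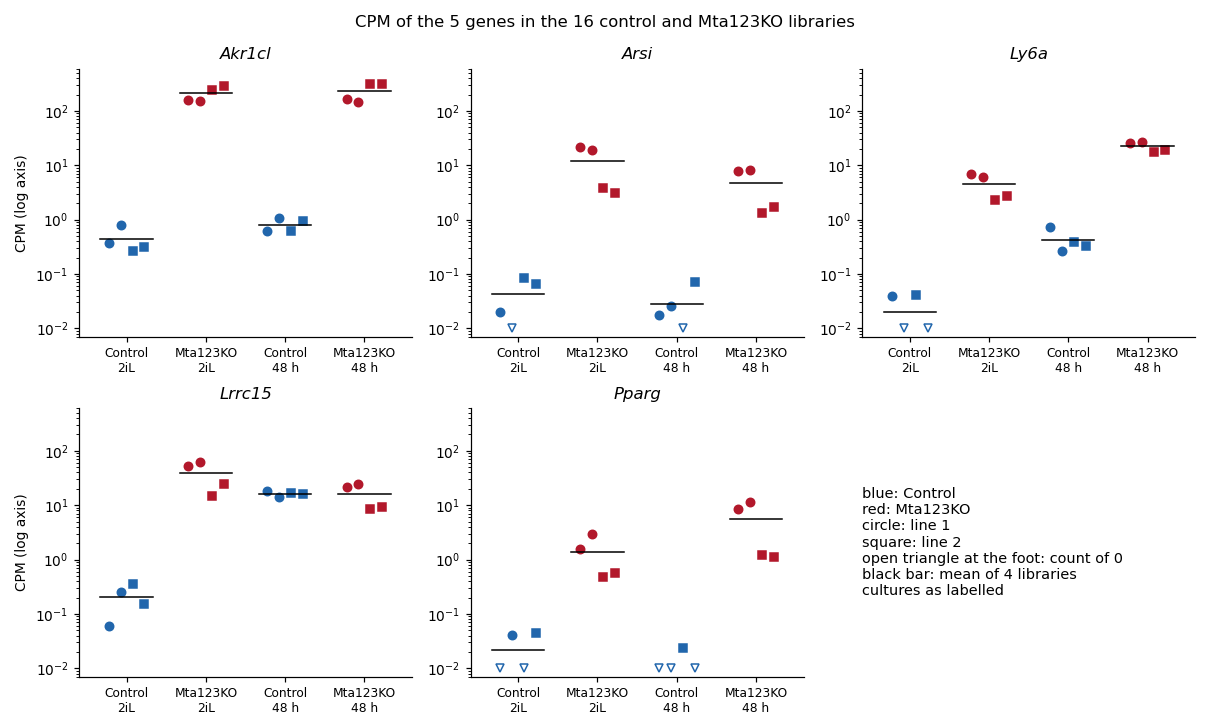
CPM of each gene (log axis) in the 16 control (blue) and Mta123KO (red) libraries by labelled culture, with circles for line 1, squares for line 2, open triangles for libraries with 0 counts and bars for the mean of 4 libraries. Mta123KO was above control for all 5 genes labelled 2iL and for 4 of 5 labelled 48 h, Lrrc15 being at 13.9 to 18.2 CPM in the controls labelled 48 h.

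A gene counted as called past both thresholds, 0.05 for the adjusted p of edgeR and 1 for the log2 difference in either direction. By this rule 5 of 5 members were increased labelled 2iL and 4 of 5 labelled 48 h, as were 13.2% and 14.1% of all genes tested. Libraries did not overlap for the same numbers of members, with Mta123KO higher, and for 25% and 24.6% of all genes. The same libraries chose the members, so nothing is read from these counts. Per kilobase of annotated exon, the mean levels in Mta123KO labelled 2iL were ordered Akr1cl at 50.3 CPM per kb, Lrrc15 at 7.25, Arsi at 4.01, Ly6a at 3.73 and Pparg at 0.475. Labelled 48 h the order was Akr1cl at 55.5 CPM per kb, Ly6a at 18.4, Lrrc15 at 2.97, Pparg at 1.89 and Arsi at 1.58.

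The change with culture differed in direction among the members. These culture differences share their libraries with the comparisons above and are again a description. From labelled 2iL to labelled 48 h, Lrrc15 in controls rose from a mean of 0.204 ± 0.125 to 16.3 ± 1.82 CPM (SD, n = 4 each), a log2 difference of 6.32 (standard error 0.27). In Mta123KO it went from 38.5 ± 22.5 to 15.8 ± 8.04 CPM, a log2 difference of -1.29 (standard error 0.52), and the difference between the log2 differences was -7.59 (standard error 0.74). Ly6a was higher labelled 48 h in both genotypes, by a log2 difference of 4.23 in controls and 2.30 in Mta123KO. Pparg in Mta123KO had 1.40 ± 1.17 CPM labelled 2iL and 5.59 ± 5.24 CPM labelled 48 h, and Arsi had 11.9 ± 9.83 and 4.70 ± 3.70 CPM. For both genes the ranges of the 2 labels overlapped, while within each line Pparg was higher and Arsi lower labelled 48 h. Akr1cl in Mta123KO was nearly level, at 212 ± 65.8 and 234 ± 90.5 CPM. In Mta123KO, 1 member (Ly6a) passed both thresholds between the labels, against 9.46% of all genes tested. With the replicate number taken as a block, which pairs libraries of the same line across cultures, 4 members passed and the share of all genes was 12.4%. With the libraries of each line summed, 0 of 24445 genes passed in edgeR, the members included, while 3568 had an unadjusted p under 0.05. In controls 2 members passed (Ly6a and Lrrc15; 23.6% of all genes) and for the interaction of genotype and culture 1 (Lrrc15; 13% of all genes).

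Lrrc15 in the remaining libraries of the series lay far from the controls labelled 2iL. In the 18 single-mutant and parent libraries, all grown in 2iL, it ranged from 5.86 to 64.8 CPM, with a median of 37.2 CPM. These libraries were normalised separately and read from 1 end of each fragment, so levels across the sets are set side by side without a test. The CPM values of 10 naive pluripotency genes summed to 3581 to 6213 in the single-mutant and parent libraries, 3976 to 4398 in controls labelled 48 h, 282 to 359 in controls labelled 2iL, 485 to 590.4 in Mta123KO labelled 2iL and 2011 to 3012 in Mta123KO labelled 48 h. Mta123KO libraries labelled 2iL combined a low naive sum with a high Lrrc15 level. The part of the culture labels in the Lrrc15 levels was not tested.

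**Figure D2:**
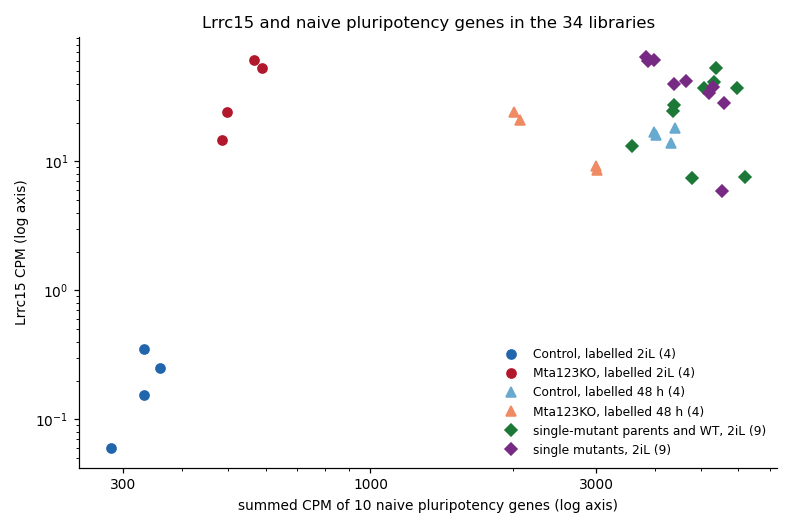
Lrrc15 CPM against the summed CPM of 10 naive pluripotency genes in all 34 libraries (both axes log), by group as labelled, as a description without a test. The 4 controls labelled 2iL lie alone at the lower left (0.0599 to 0.352 CPM of Lrrc15), while the 4 Mta123KO libraries labelled 2iL have a sum of 485 to 590.4 CPM with 14.6 to 61.6 CPM of Lrrc15.

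The single mutants were compared with their own parents in edgeR. Akr1cl, Ly6a and Lrrc15 passed the filter on low counts there, and Arsi and Pparg did not. In Mta2_KO, 2 of the 3 tested members were increased past both thresholds, Akr1cl and Ly6a, against 5.31% of all 15602 genes tested. In Mta1_del 0 of 3 members passed, as did 0% of 14561 genes (50 genes had an unadjusted p under 0.05, and DESeq2 also called 0), and in Mta3_del 0 of 3 passed, against 6.06% of 15522 genes called in either direction and 0.812% called as increased.

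Akr1cl in Mta2_KO had 2.05, 1.99 and 1.68 CPM, against 0.604, 1.25 and 0.892 CPM in Mta2_WT. All 3 mutant libraries were above all 3 wild-type libraries. The log2 difference was 1.04 (standard error 0.27, adjusted p = 0.010, edgeR), close to the threshold of 1, and it was 0.81 without Mta2_WT replicate 1 and 0.98 without Mta2_KO replicate 1. The increase of the mean, 0.990 CPM, amounted to 0.468% of the increase in Mta123KO labelled 2iL and 0.425% of that labelled 48 h, which were measured in the other set of libraries.

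Ly6a in Mta2_KO had 1.34, 1.11 and 1.51 CPM, against 0.432, 0.468 and 0.573 CPM in Mta2_WT, and the groups did not overlap. The log2 difference was 1.42 (standard error 0.26, adjusted p = 0.00171, edgeR), and it stayed between 1.31 and 1.53 when each library was left out in turn. The increase of 0.829 CPM amounted to 18.5% of the increase in Mta123KO labelled 2iL and 3.80% of that labelled 48 h, again across sets. Since the culture labels are in doubt, it is not known which of these shares compares like cultures. When all 18 libraries were fitted together, with 1 shared estimate of the spread, neither gene passed the correction (adjusted p = 0.090 for Akr1cl and 0.18 for Ly6a, edgeR).

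Lrrc15 in Mta2_KO had 60.6, 60.7 and 64.8 CPM, against 41.5, 52.7 and 37.1 CPM in Mta2_WT. The groups did not overlap, and the log2 difference was 0.49 (standard error 0.11, adjusted p = 0.00543, edgeR), under the threshold on fold (23.5% of all genes were increased at this p at any fold). All 3 tested members thus had higher, non-overlapping libraries in Mta2_KO, a pattern found for 28.5% of all genes tested. The wild-type cells already expressed Lrrc15 at 37.1 to 52.7 CPM. The increase of the mean, 18.2 CPM, amounted to 47.6% of the increase in Mta123KO labelled 2iL, which started from controls at 0.204 CPM. No share exists labelled 48 h, where the mean of Mta123KO was not higher. The controls labelled 48 h were the nearer to the single-mutant libraries in their naive sums, so the share of 47.6% may compare unlike cultures.

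In Mta3_del, Lrrc15 had 39.6, 42.3 and 37.6 CPM, against 27.3, 13.3 and 24.5 CPM in Mta3_flox. The groups did not overlap, as for 23.7% of genes in this direction. The log2 difference was 0.83 (standard error 0.24, adjusted p = 0.047, edgeR), under the threshold on fold, and 8.32% of all genes were increased at this p at any fold. No leave-one-out fit kept it under 0.05, the adjusted p running from 0.0509 without Mta3_flox replicate 1 to 0.132 without Mta3_del replicate 1. The increase of 18.1 CPM amounted to 47.3% of that in Mta123KO labelled 2iL, with the same difference in starting level and the same doubt about culture. Akr1cl in Mta3_del had 1.66, 1.71 and 1.53 CPM, against 1.63, 2.16 and 1.09 CPM in Mta3_flox, a log2 difference of -0.06 (standard error 0.35, adjusted p = 0.91, edgeR). Ly6a had 0.331, 0.776 and 1.40 CPM, against 1.02, 0.802 and 0.663 CPM, a log2 difference of -0.05 (standard error 0.54, adjusted p = 0.96, edgeR). The mutant and parent libraries of both genes overlapped.

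The Mta1 libraries stood apart for Ly6a, whatever the genotype. Mta1_flox had 12.7, 74.9 and 14.8 CPM and Mta1_del 22.1, 37.4 and 12.4 CPM, so that all 6 libraries were above the 12 libraries of the Mta2 and Mta3 series, which reached 1.51 CPM at most. The mutant and parent ranges overlapped, and the log2 difference was -0.53 (standard error 0.76, adjusted p = 1.0, edgeR). Without Mta1_flox replicate 2, the library with 74.9 CPM, it was 0.81 with an adjusted p of 1.0. In the same library the 14 fibroblast markers summed to 108 CPM, against 44.2 and 60.8 CPM in the other Mta1_flox libraries and 45.2 to 71.3 CPM in Mta1_del, with 2 of the 14 (S100a4 and Dcn) at 0 in all Mta1_flox libraries. The Mta3_flox libraries had fibroblast sums of 71.1 to 142 CPM with Ly6a at 0.663 to 1.02 CPM. The part of these markers in the Ly6a level was not tested.

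Akr1cl in Mta1_del had 2.37, 3.98 and 2.76 CPM, against 0.999, 0.802 and 2.72 CPM in Mta1_flox. The ranges overlapped at 1 library of each group. Libraries of the same replicate number deviated together in the Mta1 series, and Akr1cl was higher in Mta1_del in 3 of 3 such pairs, though by little in the last (2.76 against 2.72 CPM). The log2 difference was 0.98 (standard error 0.53, adjusted p = 1.0, edgeR), nearly the size found in Mta2_KO with a larger error. Blocked on the replicate number it was 1.08 (adjusted p = 0.98, edgeR). Lrrc15 varied about as much within the Mta1 groups as between them, with 28.5, 33.9 and 5.86 CPM in Mta1_del and 37.2, 7.58 and 7.44 CPM in Mta1_flox. Its log2 difference was 0.40 (standard error 0.81, adjusted p = 1.0, edgeR). The fit blocked on the replicate number left 0 members called.

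The responses to loss of different MTA genes were compared directly in 1 fit of the 18 libraries. None of the 3 members differed past the correction in the 3 pairwise comparisons (in which 1.96%, 0.129% and 8.53% of genes passed both thresholds). The smallest unadjusted p was that of Ly6a between Mta2_KO and Mta1_del, a difference of 1.92 on the log2 scale (standard error 0.88, unadjusted p = 0.042, adjusted p = 0.31, edgeR). The smallest adjusted p was that of Akr1cl for Mta3_del minus Mta2_KO, a difference of -1.05 (standard error 0.57, adjusted p = 0.22, edgeR). With errors of this size the single mutants are not shown to act alike.

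Arsi and Pparg stayed at the limit of detection in the single mutants. Arsi held 1 to 6 counts in every one of the 18 libraries, the highest level being 0.339 CPM in a Mta3_flox library. Its ratio of summed counts, mutant over parent, was 0.584 (exact interval 0.189 to 1.70) for Mta1, 0.668 (0.220 to 1.89) for Mta2 and 0.412 (0.127 to 1.19) for Mta3, so that no increase was detectable at this depth. Pparg was lower in Mta2_KO and Mta3_del than in their parents. Mta2_KO held 5, 2 and 3 counts against 6, 7 and 20 in Mta2_WT, a ratio of 0.318 (0.140 to 0.661). It rested on Mta2_WT replicate 3, without which it was 0.558 (0.219 to 1.38). Mta3_del held 0 counts in 3 libraries against 5, 5 and 2 in Mta3_flox, the interval of the ratio reaching up to 0.296, and a count of 0 in this group allows a level of up to 0.0389 CPM (3 counts over the group). Mta1_del and Mta1_flox held 2 counts and 1 count in all. These intervals cover counting error only and take no account of the spread between libraries.

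**Figure D3:**
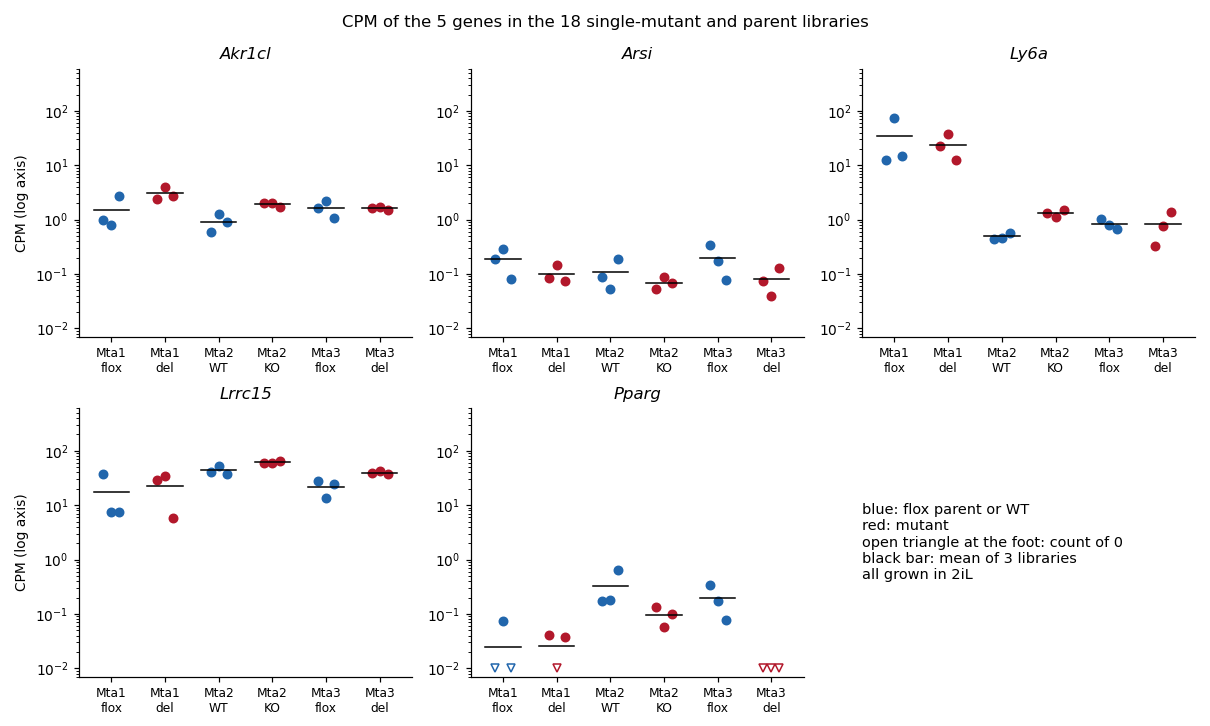
CPM of each gene (log axis) in the 18 libraries grown in 2iL, with parents or wild type in blue, mutants in red, open triangles for 0 counts and bars for the mean of 3 libraries. Akr1cl and Ly6a were higher in Mta2_KO without overlap, Ly6a was at 12.4 to 74.9 CPM in the Mta1 series, and Lrrc15 was at 5.86 CPM or more in all 18 libraries.

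**Figure D4:**
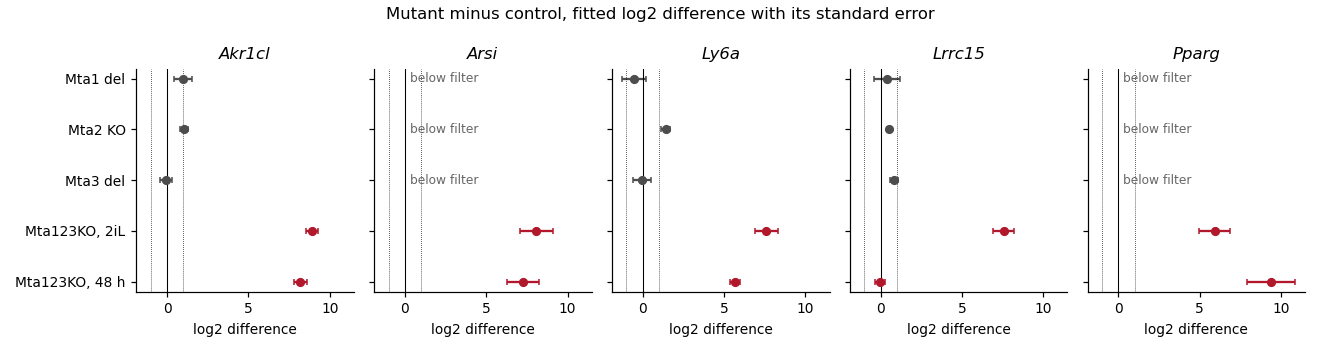
Fitted log2 difference, mutant minus control, with its standard error, for the single mutants (grey) and Mta123KO (red, a description), dotted lines marking a log2 difference of 1 in each direction. Akr1cl was at 1.04 in Mta2_KO and 8.91 in Mta123KO labelled 2iL, and Lrrc15 in Mta123KO was at 7.56 labelled 2iL and -0.04 labelled 48 h; Arsi and Pparg were below the filter in the single mutants.

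In each of the 5 genes the libraries of the 2 Mta123KO lines did not overlap under either label. The share of all genes with such a gap was not counted, so it is not read as particular to the members. The lines also stood apart as whole libraries. Labelled 2iL, the chi-square per degree of freedom was 87.0 to 112.8 between libraries of different lines, and 6.32 and 19.4 within the lines. Line 1 was higher for 4 genes and line 2 for Akr1cl. Pparg labelled 48 h had the widest gap, with line means of 10.01 and 1.17 CPM, a ratio of 8.57. Arsi was 5.84 times as high in line 1 labelled 2iL and 5.24 times labelled 48 h, Lrrc15 2.95 and 2.55 times, and Ly6a 2.60 and 1.43 times. Akr1cl was 1.70 and 2.00 times as high in line 2. Each line has 2 libraries per culture label, so the difference between the lines was not tested. In bulk libraries a gene expressed in fewer cells and a gene expressed at a lower level per cell cannot be told apart.

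Trophoblast markers were also higher in line 1. The 13 markers summed to 541 and 575 CPM in line 1 and 136 and 145 CPM in line 2 of Mta123KO labelled 2iL, and to 865 and 918 CPM against 201 and 216 CPM labelled 48 h, while controls had 22.9 to 28.2 and 84.2 to 104 CPM. Of these markers 11 of 11 tested were increased in Mta123KO labelled 2iL and 7 of 10 labelled 48 h, against 13.2% and 14.1% of all genes. Of those increased, 2 under each label had a control library under the filter on low counts, Gata3 among them labelled 2iL. Such genes were tested only with the help of their Mta123KO libraries, which favours calls of an increase. The keratins Krt8, Krt18 and Krt7 made up most of the sum labelled 48 h, with means of 203, 198 and 54.7 CPM. The 3 markers not called there were the trophoblast factors Cdx2 (log2 0.94, adjusted p = 0.16, edgeR), Eomes (log2 -0.50, adjusted p = 0.13, edgeR) and Tfap2c (log2 -0.58, adjusted p = 0.019, edgeR), named after their values were seen. Krt8, a keratin of simple epithelia, rose from 5.18 ± 0.718 to 97.7 ± 78.3 CPM labelled 2iL (log2 4.26, adjusted p = 5.97e-04, edgeR), and the trophoblast factor Gata3 from 0.114 ± 0.0993 to 5.67 ± 3.39 CPM (log2 5.61, adjusted p = 1.68e-04, edgeR). The placental markers Prl3d1 and Tpbpa were at 0 in every control library, and Tpbpa also in Mta123KO labelled 48 h. In Mta2_KO 3 trophoblast markers fell and 1 rose among 10 tested, where 6.04% of all genes fell and 5.31% rose. The sum of the trophoblast markers was nevertheless higher there, at 159 to 171 CPM against 123 to 125 CPM in Mta2_WT. Markers of tissues that express Lrrc15 and Ly6a moved too. Of the fibroblast markers 5 of 8 tested rose and 1 fell labelled 2iL, and 5 of 7 rose and 0 fell labelled 48 h. Their sum was 51.4 to 79.2 and 55.9 to 61.9 CPM in Mta123KO, against 19.5 to 25.2 and 21.0 to 27.1 CPM in controls. Of all genes, 7.43% fell labelled 2iL and 5.93% labelled 48 h. Of the blood and endothelial markers 5 of 8 rose and 0 fell labelled 2iL, and 4 of 7 rose and 1 fell labelled 48 h. The gene that fell was Kit, from 267 to 122 CPM (log2 -1.12, adjusted p = 0.00195, edgeR). The sum of the blood and endothelial markers was 104 to 177 CPM in Mta123KO and 71.2 to 91.6 CPM in controls labelled 2iL. Labelled 48 h it was 147 to 268 and 299 to 430 CPM, with Hbb-bs at 0 in both control groups and in Mta123KO labelled 48 h. A control library was under the filter for 1 increased fibroblast marker under each label. The same held for 3 increased blood and endothelial markers labelled 2iL and 2 labelled 48 h. The part of these 3 marker groups in the levels of the members was not tested.

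The other genes of each family were tested in the same fits, in which 13.2% of all genes rose and 7.43% fell labelled 2iL, and 14.1% rose and 5.93% fell labelled 48 h. They were 16 further aldo-keto reductase genes, 13 further sulfatases and activators, 26 further Ly6 family genes and 17 further leucine-rich repeat genes listed in the files. Of 7 aldo-keto reductase genes tested labelled 2iL, 0 rose and 2 fell (median log2 difference -0.30, against 0.01 for all genes). Both that fell, Akr1e1 and Akr1b8, are carbonyl reductases of other subfamilies. Labelled 48 h, 2 of 8 rose and 1 fell (median 0.01). Those that rose were Akr1c14 (log2 2.98) and Akr1b7 (log2 1.18), at means of 0.582 and 0.972 CPM in Mta123KO. Both had a control library under the filter on low counts and so were tested only with the help of Mta123KO. Of 12 sulfatase genes labelled 2iL, Arsg rose (log2 1.23, adjusted p = 0.011, edgeR) and Arsa, the lysosomal arylsulfatase A, fell (log2 -1.81, adjusted p = 1.08e-05, edgeR). Labelled 48 h, 1 of 12 rose, again Arsg (log2 1.31, adjusted p = 0.0015, edgeR), and 0 fell. Of 14 leucine-rich repeat genes, 6 rose labelled 2iL, and 1 of 10 rose labelled 48 h, Amigo2. Among the 6 were Lrrc32, from 0.217 to 2.38 CPM (log2 3.47, adjusted p = 4.04e-04, edgeR), and Cpn2, a neighbour of Lrrc15, at 0.959 CPM in Mta123KO (log2 6.94). Lrrc32 and Cpn2 had a control library under the filter on low counts, so their tests also rested on the Mta123KO libraries.

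In the Ly6 family, labelled 2iL, 6 of 12 tested genes rose and 1 fell (median log2 difference 1.23), and labelled 48 h 8 of 15 rose and 0 fell (median 1.26), against a median of 0.01 over all genes in both comparisons. All 6 genes that rose labelled 2iL and 5 of the 8 labelled 48 h had a control library under the filter on low counts and so were tested only with the help of their Mta123KO libraries, which favours calls of an increase. Ly6c1, a marker of monocytes and endothelium that lies 45987 bases from Ly6a, went from 0.0468 ± 0.0516 to 1.90 ± 0.545 CPM labelled 2iL (log2 5.28, adjusted p = 4.77e-05, edgeR) and from 0.0888 ± 0.0483 to 4.87 ± 0.293 CPM labelled 48 h (log2 5.68, adjusted p = 1.99e-06, edgeR). Ly6k, a family member of testis, rose labelled 2iL by a log2 difference of 2.27 (adjusted p = 0.00178, edgeR) and fell in Mta2_KO by 1.48 on the log2 scale (adjusted p = 0.00113, edgeR). In Mta2_KO 2 of 9 tested family genes rose and 1 fell. Those that rose were Ly6e, the neighbour of Ly6a, from 44.5 ± 0.796 to 96.4 ± 6.59 CPM (log2 1.11, adjusted p = 4.17e-07, edgeR), and the complement inhibitor Cd59a, from 6.16 ± 0.224 to 29.2 ± 0.705 CPM (log2 2.24, adjusted p = 1.99e-08, edgeR). Of the transcript 50-base words of Ly6a, 19.0% were shared with other genes, most of them with Ly6c1, so reads can be split between these copies.

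Around the members, neighbouring genes were counted as well. Of the 20 nearest protein-coding genes, 2 on each side of each member, 17 passed the filter labelled 2iL and 10 of them were increased past both thresholds, where 13.2% of all genes were. Labelled 48 h, 6 of 15 were increased (14.1% of all genes), and none was decreased under either label. Of these, 6 of the 10 labelled 2iL (Cpn2, Crygd, Cryge, Ly6c1, Ly6c2 and Slc6a7) and 2 of the 6 labelled 48 h (Ly6c1 and Ly6c2) had a control library under the filter and were tested only with the help of Mta123KO, so these counts are no support for an excess. The increased neighbours of Akr1cl included the lens crystallin genes Cryge and Crygd, at 0.139 and 0.151 CPM in controls labelled 2iL and 7.70 and 5.68 CPM in Mta123KO (log2 5.77 and 5.22, adjusted p = 4.18e-06 and 2.69e-06, edgeR), a pair of similar genes between which reads may be split. Beside Arsi, the antigen-presentation gene Cd74 went from 2.24 to 30.8 CPM (log2 3.80, adjusted p = 2.46e-06, edgeR) and the kinase gene Camk2a from 1.003 to 8.80 CPM (log2 3.15, adjusted p = 2.67e-05, edgeR). Beside Lrrc15, Cpn2 had a mean of 0.00519 CPM in controls and 0.959 CPM in Mta123KO labelled 2iL, and was below the filter labelled 48 h. Beside Pparg, none of the tested neighbours was increased. In Mta2_KO 1 of 14 neighbours tested was increased, Ly6e, near the 5.31% of all genes, and in Mta1_del and Mta3_del 0 of 16 each (0% and 0.812% of all genes). Akr1cl also spans the processed pseudogene Gm8550, with which it shares 447 of 4297 transcript words of 50 bases, so a part of its reads may have been assigned there. Gm8550 was at 4.68 CPM in Mta123KO labelled 2iL, against 212 CPM for Akr1cl.

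Partners and targets of Pparg were counted against the 13.2% of all genes that rose labelled 2iL and the 14.1% labelled 48 h. Of 10 tested PPAR receptors, Rxr partners and coregulators labelled 2iL, 1 rose, Rxra (from 18.4 ± 2.22 to 38.9 ± 9.44 CPM, log2 1.10, adjusted p = 7.31e-04, edgeR), and 1 fell, Rxrg (log2 -1.83, adjusted p = 0.00188, edgeR). Labelled 48 h 0 of 9 passed both thresholds, Rxra having a log2 difference of 0.79 (adjusted p = 0.00817, edgeR). Of the Pparg targets and fat cell genes, 1 of 18 rose and 1 fell labelled 2iL. These were the lipid droplet gene Plin2, from 16.1 ± 2.78 to 53.4 ± 24.5 CPM (log2 1.75, adjusted p = 0.00156, edgeR), and Acsl1, which activates fatty acids (log2 -1.12, adjusted p = 1.72e-04, edgeR). Labelled 48 h 4 of 17 rose and 0 fell. Those that rose included the fatty acid binding protein gene Fabp5 (log2 2.05, adjusted p = 1.36e-05, edgeR) and the fat cell factor Cebpa, from 0.684 ± 0.405 to 4.66 ± 3.69 CPM (log2 2.80, adjusted p = 0.00877, edgeR). Of these 4 genes, 1 had a control library under the filter on low counts. The median log2 difference of these targets was 0.37 labelled 2iL and -0.28 labelled 48 h, against 0.01 over all genes tested. In Mta2_KO 0 of 11 partners changed, while among 19 targets Cidea rose (log2 1.63, adjusted p = 1.40e-07, edgeR) and Plin2 fell (log2 -1.92, adjusted p = 9.90e-09, edgeR).

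Among 18380 genes that averaged 1 CPM or more in any of the 4 groups, those most like each member over the 16 control and Mta123KO libraries were found by Pearson's r of log2 CPM, a description of libraries that share lines and a large genotype difference. For Akr1cl they were Tex13b (0.992), Bend7 (0.991) and Gm8550 (0.990), and for Arsi Tmem45b (0.991), Mbnl2 (0.990) and Ptprf (0.989). Ly6a was most like Zfp410 (0.991), Nckap1 (0.985) and Copa (0.985), genes with small differences between groups, such as 22.8 to 42.4 CPM for the group means of Zfp410. Lrrc15 was most like Tshz1 (0.974), Hoxb9 (0.973) and Atp9a (0.971), and Pparg like Chdh (0.989), Vgll1 (0.986) and Krt8 (0.985). Between members, r was highest for Arsi and Pparg (0.916) and lowest for Lrrc15 and Pparg (0.549).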

How the data were processed

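RNA was sequenced from mouse ES cells. The authors deposited raw counts, 1 file for each library, with no normalization. Reads were trimmed with Trim Galore, aligned to GRCm38/mm10 with Tophat and counted with featureCounts on an Ensembl annotation, and the handling of reads with several alignments is not given in the sources used here. Groups and replicate numbers came from the sample titles. Single-mutant files list 22018 genes and the others 48709 genes.

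The test was that of edgeR 4.0.16 in R 4.3.3 (TMM, filterByExpr, quasi-likelihood F test, Benjamini-Hochberg adjustment over all genes tested), only the groups compared entering a fit. A gene was called past an adjusted p of 0.05 and an absolute log2 difference of 1. Likeness used log2 CPM with a prior count of 2. Ratios of summed counts carry exact 95% intervals, and a count of 0 allows 3 counts. At these depths counting error limits genes under about 1 CPM. The named genes were the members, the 2 nearest protein-coding genes on each side and the 3 most alike. Up to 4 genes of each list were also named, those with the largest called difference and a mean of at least 1 CPM. Pou5f1, markers at 0 and the aldo-keto reductase genes that rose labelled 48 h were named as checks. The members and all lists were chosen with earlier results of these data known. Numbers paired the libraries where every same-numbered pair correlated over 0.1, which held in the Mta1 series (0.435 to 0.700) and between cultures within a genotype (0.272 to 0.586), and not in the Mta2, Mta3 or Mta123KO comparisons. On simulated data holding 200 genes with 4-fold changes, the fit recovered 100% of them in the Mta2 design (15590 genes) and the Mta123KO design labelled 2iL (21835 genes). The changed genes were all above 1 CPM, and every gene had the same spread with no difference between lines. The recovered share is therefore no measure of power for smaller differences, lower levels or the spread of the real libraries. Alternatives were DESeq2 1.42.0, RLE scaling, no filter, the replicate block, joint fits, summed lines, spike-in scaling, shared genes, no fold threshold, leaving out libraries and, added after seeing the data, exchanged culture labels.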

Additional observations from a re-analysis of the deposited data

Results flagged for a closer look

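The change of Lrrc15 with culture went in opposite directions in the 2 genotypes. From labelled 2iL to labelled 48 h it was higher by 6.32 on the log2 scale in controls and lower in Mta123KO (-1.29), in 4 of 4 same-numbered library pairs of each genotype. The fitted difference between both changes was -7.59. The libraries are those that chose the gene, so it is a description and no p is read from it.

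Pparg in controls labelled 48 h had 1 library at 0.0239 CPM, a single count, with the other 3 at 0. Beside 3 libraries at 0 any single count is picked out by this measure of distance from the rest of the group, so it says nothing about the library. In all, 20 groups of 4 were examined, of which chance picks out about 1 in 20.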

How the results depend on the processing

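In Mta2_KO 2 members were called, 0 in 1 fit of all 18 libraries and 1 or 2 when each library was left out; without Mta2_KO replicate 1 or Mta2_WT replicate 1 Akr1cl fell under the threshold on fold (0.98 and 0.81). In Mta3_del 0 members were called, and 1 with no threshold on fold. Leaving out libraries kept the Mta1_del and Mta3_del counts at 0, gave 2 to 3 members with culture in controls, and left the 5 and 4 members of the Mta123KO comparisons. With culture in Mta123KO 1 member passed (9.46% of all genes), 2 in DESeq2 (10.2%), 4 with the replicate block (12.4%), 3 in 1 fit of 16 libraries (11.7%) and 0 with the libraries of a line summed, where 0 of 24445 genes passed and the count says nothing of the members. The replicate block changed no other count; in Mta3_del it moved Lrrc15 to an adjusted p of 0.057 (edgeR). With the culture labels exchanged, 4 members passed labelled 2iL and 5 labelled 48 h.

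Some differences changed sign, none of them past the correction. In Mta1_del, Ly6a was at 0.81 without Mta1_flox replicate 2 (-1.004 to 0.81 over all libraries left out) and Lrrc15 was at -0.037 without Mta1_del replicate 2 (-0.037 to 1.56). In Mta3_del, 1 fit of all libraries gave 6.77e-05 for Akr1cl and 0.018 for Ly6a, and leaving out libraries gave -0.29 to 0.23 and -0.62 to 0.35. Between single mutants, Mta2_KO minus Mta1_del ran from -0.68 to 0.37 for Akr1cl and from -1.10 to 0.53 for Lrrc15, and Mta3_del minus Mta1_del from -0.78 to 0.999 for Ly6a and from -0.71 to 0.91 for Lrrc15. Pparg in Mta123KO labelled 48 h was at 11.03 without Control_48h replicate 2_1, its only control count. Of the ratios of summed counts, as an alternative chosen after seeing the data, Arsi went to 445 labelled 2iL without Control_2iL replicate 2_1, to 308 labelled 48 h without Control_48h replicate 2_2 and to 1.02 in Mta2_KO without Mta2_WT replicate 3. Ly6a went to 334 without Control_2iL replicate 2_1. Pparg went to 43.4 without Mta123KO_2iL replicate 1_2, to 106 without Control_2iL replicate 2_2 and to 609 labelled 48 h without Mta123KO_48h replicate 1_2. The cause of these changes was not tested, other than the library left out. Depth limits Arsi and Pparg, which held at most 6 and 20 counts in a single-mutant library.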
